A study of Mus musculus with 11 samples.

Results

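The genes described here mostly encode subunits of the mitochondrial respiratory chain and the ATP synthase. They were chosen by symbol: Nduf genes of the A, B, C, S and V series, Sdha to Sdhd, Uqcr genes, nuclear Cox4 to Cox8 subunits with a lettered isoform name, and Atp5 genes. A mean of at least 1 CPM (a gene's reads scaled to the library's counted total) over all libraries was required. Of 23284 genes listed in the count tables, 82 symbols matched and 76 met the minimum, 35 named for complex I, 4 for complex II, 8 for complex III, 12 for complex IV and 17 for complex V. Atp5s and Atp5sl are counted under complex V by name and are not classical subunits of it. Cox7a2l, counted under complex IV, is known as a supercomplex assembly factor. The rule used no contrast between groups.

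The respiratory chain sits in the inner mitochondrial membrane. Complexes I and II take electrons from NADH and succinate, complex III passes them on to cytochrome c, complex IV hands them to oxygen, and complexes I, III and IV pump protons whose return through complex V makes ATP. Acinar cells of the pancreas depend on this ATP for the synthesis and regulated secretion of digestive enzymes. Nearly all subunits are made in the cytosol from nuclear genes and imported, while a small core set is encoded in mitochondrial DNA; the 13 genes of that core set were not analysed here.

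RNA was sequenced from 266-6 cells, a mouse pancreatic acinar cell line, in 11 libraries of 4 groups. Cells of the siCtrl group (n = 2) received the non-targeting siRNA NT5 and the vehicle, 0.1% BSA. Those of siCtrl_EGF (n = 3) received NT5 and epidermal growth factor (EGF, 40 ng/ml), a ligand of the EGF receptor. Those of siArid1a (n = 3) received siRNAs against Arid1a at 25 nM and the vehicle, and those of siArid1aplusEGF (n = 3) received both the Arid1a siRNAs and EGF. All cells were wild type for Arid1a, a subunit of the BAF (SWI/SNF) chromatin remodelling complex, were transfected for 48 h, starved of serum overnight, and exposed to EGF or vehicle for 8 h. The knockdown is transient, in 1 line, and leaves part of the Arid1a RNA. The labels do not state whether replicates are separate cultures. The p-values therefore describe the spread among these libraries alone, which may be technical.

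Arid1a was lower with the siRNAs, by 1.25 on the log2 scale without EGF (SE 0.14, adjusted p = 2.36e-05, edgeR quasi-likelihood test) and by 1.06 with EGF (SE 0.12, adjusted p = 2.85e-05). Depth ranged from 10279763 to 19773007 counted reads per library. Of 15 acinar markers, 13 had a median of at least 1 CPM and 1, Amy2a2, was at 0 in every library. The summed acinar level was 16195.56 to 18257.06 CPM in siCtrl, 13875.7 to 15162.54 in siCtrl_EGF, 16696.59 to 19473.63 in siArid1a and 15189.18 to 17019.36 in siArid1aplusEGF, lower with EGF and control siRNA than in any siCtrl library. Of 5 islet markers Ins1, Ins2 and Sst were at 0 throughout and Chga alone had a median of at least 1 CPM; their sum was 696.53 to 751.68 CPM in siCtrl, 1068.19 to 1117.59 in siCtrl_EGF, 653.13 to 787.82 in siArid1a and 795.06 to 843.58 in siArid1aplusEGF. The 5 ductal markers summed to 53.81 to 76.74 CPM in siCtrl, 105.2 to 115.0 in siCtrl_EGF, 53.02 to 57.06 in siArid1a and 63.63 to 69.47 in siArid1aplusEGF. The 8 fibroblast markers summed to 280.16 to 288.88 CPM in siCtrl and 291.35 to 322.19 in siCtrl_EGF. Their sum was 309.13 to 350.4 in siArid1a and 321.13 to 327.79 in siArid1aplusEGF. In the same group order, the 6 immune markers summed to 5.06 to 5.55, 6.19 to 7.35, 6.07 to 7.49 and 8.29 to 9.26 CPM. The 4 endothelial markers summed to 2.17 to 2.2, 1.26 to 1.79, 2.24 to 2.59 and 1.98 to 3.25 CPM. Single genes made up most of several sums. Over all libraries Ctrb1 was at 10882 to 14337 CPM among the acinar, Sox9 at 38.8 to 101.3 among the ductal and Pdgfrb at 267.0 to 335.3 among the fibroblast markers. A shift of such a sum can thus be that of 1 gene. The part of these shifts in the results below was not tested. In bulk RNA, fewer cells of a type and less RNA per cell cannot be told apart.

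Per unit of length, the ATP synthase held the member of the highest level. In the authors' FPKM table (fragments per kilobase of transcript, scaled to library size, 9 columns of the 3 groups other than siCtrl), Atp5b, the catalytic beta subunit, averaged 1713 FPKM, and 8 of 23234 genes were above it. It was followed by Cox6a1 at 1093 FPKM, Cox8a at 1050 and Atp5e at 1032. The median member was at 191 FPKM in complex I, 130 in complex II, 240 in complex III, 231 in complex IV and 297 in complex V. Within complex I the levels ran from 11.6 FPKM for Ndufb4 to 787 for Ndufa4, a subunit named for complex I and since assigned to complex IV. Of the 50-base stretches of the Ndufb4 transcript 37.0% also occur in another gene, so its low level is uncertain.

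The 6 symbols under the minimum were Cox6a2, Cox7b2, Cox8b, Cox8c, Ndufa4l2 and Ndufs5. Cox6a2 and Cox8b are the heart and skeletal muscle forms, and Cox7b2 and Cox8c are testis forms, of subunits whose broadly expressed forms were present. Ndufa4l2, a hypoxia-induced paralogue of Ndufa4, had a mean of 0.382 CPM and Cox6a2 0.249 CPM, while Atp5g2 at 2.28 CPM and Cox7c at 3.09 CPM were just above the minimum. How reads that fit several places were counted is not given, and its part in low levels was not tested. Of the 50-base stretches of the Atp5g2 transcript 100% also occur in another gene of the GENCODE vM21 annotation, against 84.8% for Atp5l and 53.0% for Cox7c. Cox6a2 had 3.3% and Ndufa4l2 0.0% of such stretches. In all, 19 members had 20% or more of such stretches and are uncertain for that reason, and 33 had none. The c-ring genes Atp5g1, Atp5g2 and Atp5g3 of complex V encode the same mature protein. Atp5g3 was at 957 FPKM, Atp5g1, with 66.0% of its stretches shared, at 27.6, and Atp5g2 at 0.488.

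Summed over the 76 members, and with libraries scaled by TMM factors (a normalisation by the trimmed mean of log ratios, used for all levels below), the chain took 1.52% and 1.66% of the reads in the siCtrl libraries. The sum was 1.45% to 1.55% in siCtrl_EGF, 1.5% to 1.74% in siArid1a and 1.46% to 1.61% in siArid1aplusEGF. These ranges overlapped. In each group 1 library was above the others, namely siCtrl replicate 1, siCtrl_EGF replicate 2, siArid1a replicate 3 and siArid1aplusEGF replicate 2. The same 4 libraries were highest in their groups on the leading component of the variation within groups, which held 31.0% of that variance. On this component 74 of the 76 members had a loading above 0, against 52.3% of all genes tested. The loading went with transcript length: its median was 0.89 for tested genes of up to 600 bases and -0.68 for those over 4000, and members are short, with a median of 723 bases against 2826. Fits with this component as a covariate are therefore given beside the counts of called members. The component comes from these same counts, so as a covariate it removes spread by construction and raises the calls of all genes. A fit without these 4 libraries is listed with the alternatives. They were picked by the members' own sum, which narrows the members' spread, and siCtrl is left with 1 library.

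The shares of complexes I and V in the members' reads did not overlap between libraries with Arid1a siRNAs and those with control siRNA. Complex I took 28.61% and 28.16% of the members' summed level in siCtrl, 27.44%, 27.48% and 27.66% in siCtrl_EGF, 29.96%, 30.04% and 30.57% in siArid1a and 29.66%, 29.86% and 29.57% in siArid1aplusEGF. All 6 libraries with Arid1a siRNAs were above all 5 with control siRNA. Complex V took 43.95% and 44.84% in siCtrl, 45.87%, 45.74% and 45.72% in siCtrl_EGF, 42.67%, 42.82% and 42.03% in siArid1a and 43.16%, 43.32% and 43.32% in siArid1aplusEGF. Here the 6 libraries with Arid1a siRNAs were below the 5 others. A share within a library does not depend on the scaling of that library. With Atp5b left out, complex I still took 37.34% to 37.90% with Arid1a siRNAs against 35.01% to 35.75% with control siRNA. The shares are parts of 1 total, so a fall of 1 raises the others. The mean summed level of complex V was 7057 CPM in siCtrl and 6734 in siArid1a, and 6884 in siCtrl_EGF and 6557 in siArid1aplusEGF. In that order the means of Atp5a1 were 839.5, 699.5, 825.1 and 674.4, and those of Atp5b, which was not called, 3253, 3142, 3262 and 3124. The share without these 2 genes was not computed. Of the 17 complex V members 4 and 5 had changes above 0 without and with EGF. No test was made of these sums over members.

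**Figure D1:**
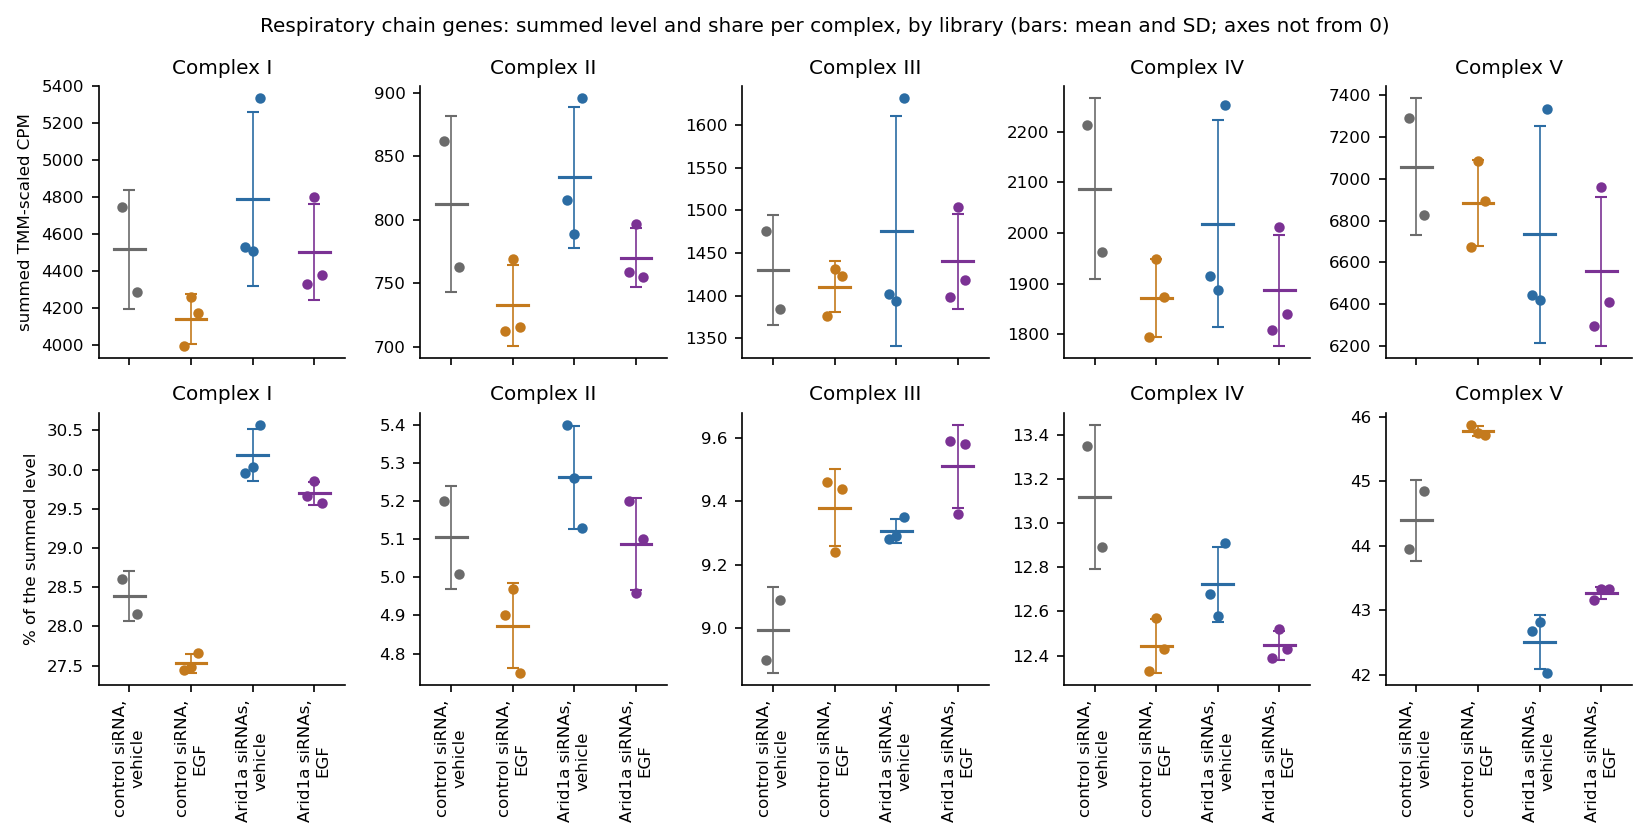
Summed TMM-scaled CPM of the members of each complex (upper row) and the share of the members' summed level in percent (lower row); points are libraries, bars the group mean and SD, and the axes do not start at 0. Complex I holds 29.57% or more in each of the 6 libraries with Arid1a siRNAs and 28.61% or less in the 5 with control siRNA, while its summed level overlaps between the groups without EGF and not between those with EGF.

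Arid1a siRNAs changed single subunits of every complex, upwards in complexes I and II and in both directions in III and IV, and the median member was near no change. Without EGF, 6 members rose and 5 fell, 14.5% of the 76, while 38.9% of the 13343 genes tested were called (18.8% higher, 20.1% lower; edgeR quasi-likelihood test, Benjamini-Hochberg adjusted p under 0.05, with no minimum fold). The median log2 change was 0.00 for members and -0.01 for all genes. With EGF, 12 rose and 4 fell, 21.1%, against 46.9% of all genes (23.7% higher, 23.2% lower), and the medians were 0.01 and 0.00. These comparisons share no library. All 6 members called higher without EGF were called higher with EGF (100% of the 6, 50% of the 12), namely Cox6b1, Cox6b2, Ndufs7, Ndufv1, Sdhc and Uqcrc1. Of those called lower, Atp5a1, Cox5a, Cox7a2l and Uqcrfs1 were called in both (80.0% of 5 and 100% of 4), and Uqcrq without EGF only. Over the 76 members, 59 had the same sign in both comparisons (over all genes tested, 83.3% had).

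In complex I, 2 of 35 members rose without EGF and none fell (5.71% called, against 38.9% of all genes), with a median of 0.08 and 25 of 35 above 0. With EGF 7 rose and none fell (20%, against 46.9%), with a median of 0.08 and 26 above 0. Ndufv1, which holds the FMN and the NADH site where electrons enter, was at 279.8 and 243.8 CPM in siCtrl, 235.5, 262.1 and 239.0 in siCtrl_EGF, 341.3, 328.2 and 376.1 in siArid1a and 319.6, 357.4 and 317.2 in siArid1aplusEGF. Every library with Arid1a siRNAs was above every library with control siRNA. The log2 change of Ndufv1 was 0.41 without EGF (SE 0.08, 95% interval 0.24 to 0.59, adjusted p = 0.00115) and 0.43 with EGF (SE 0.07, 0.28 to 0.59, adjusted p = 0.000203).

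Ndufs7, which carries the last iron-sulfur cluster before ubiquinone, rose by 0.23 without EGF (SE 0.08, adjusted p = 0.0454) and by 0.35 with EGF (SE 0.07, adjusted p = 0.00136). Its levels were 168.3 and 174.6 CPM in siCtrl, 156.4 to 165.6 in siCtrl_EGF, 190.7 to 218.3 in siArid1a and 188.6 to 231.1 in siArid1aplusEGF, so groups with and without the Arid1a siRNAs did not overlap. The call without EGF was close to the threshold and was lost in 7 of the 11 fits that left out 1 library (siCtrl replicates 1 and 2, siCtrl_EGF replicates 1 to 3, siArid1a replicate 3 and siArid1aplusEGF replicate 1; adjusted p = 0.0533 to 0.167), with a change of 0.16 without siArid1a replicate 3. The replicate block (adjusted p = 0.0901) and only the groups compared (0.0645) ended the Ndufs7 call without EGF too. Ndufs8, another iron-sulfur subunit, rose with EGF by 0.24 (SE 0.07, adjusted p = 0.0125), a call that was lost without siArid1aplusEGF replicate 2 (0.18, adjusted p = 0.061). Ndufs1, the largest complex I subunit, was at 145.2 to 160.7 CPM in all 11 libraries, with changes of 0.05 (95% interval -0.06 to 0.17) and 0.03 (-0.07 to 0.14). Ndufb10, Ndufb7 and Ndufa13, accessory subunits, were also called higher with EGF and are named only to account for calls outside the naming rule. Each was called in 8 of the 11 fits that left out 1 library. Ndufa13, with 28.5% of its 50-base stretches in another gene, is among the uncertain members.

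In complex II, 1 of 4 members was called in each comparison (25%, against 38.9% and 46.9% of all genes without and with EGF). The called subunit was the membrane anchor Sdhc. It was at 182.6 and 167.5 CPM in siCtrl, 144.3, 158.8 and 150.7 in siCtrl_EGF, 206.5, 210.3 and 236.9 in siArid1a and 196.0, 197.8 and 195.3 in siArid1aplusEGF, with no overlap in either comparison. Its log2 change was 0.32 without EGF (SE 0.07, adjusted p = 0.0025) and 0.38 with EGF (SE 0.06, adjusted p = 0.000185). The other three subunits, which share its complex in fixed stoichiometry, did not pass the test: the flavoprotein Sdha had changes of -0.01 and 0.05, the iron-sulfur protein Sdhb -0.09 and -0.05, and the other anchor Sdhd -0.09 and -0.11. For Sdha the 95% intervals were -0.12 to 0.11 and -0.06 to 0.15.

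In complex III, 1 of 8 members rose and 2 fell without EGF (37.5% called, against 38.9% of all genes). With EGF 1 rose and 1 fell (25%, against 46.9%). Uqcrc1, a core protein on the matrix side, rose by 0.24 without EGF (SE 0.07, adjusted p = 0.0179) and by 0.26 with EGF (SE 0.07, adjusted p = 0.0049), from 275.1 and 292.2 CPM to 319.2, 322.0 and 366.5, and from 272.1 to 284.8 to 305.5 to 355.7. Its partner core protein Uqcrc2 was not called (0.10 and -0.02). Uqcrfs1, the Rieske iron-sulfur protein that passes electrons towards cytochrome c, fell by 0.22 (SE 0.07, adjusted p = 0.0286) and by 0.18 (SE 0.07, adjusted p = 0.0338). Uqcrq, a small subunit, fell by 0.26 without EGF (SE 0.09, adjusted p = 0.0442), although its libraries overlapped, with 117.0 and 98.27 CPM in siCtrl and 87.29, 83.79 and 99.96 in siArid1a. The calls of Uqcrfs1 were lost with upper-quartile factors (adjusted p = 0.12 and 0.115) and when single libraries were left out: siCtrl replicate 1 or siArid1a replicate 1 or 2 without EGF (0.0834 to 0.295), and siCtrl_EGF replicate 2 or 3 or siArid1aplusEGF replicate 1 or 3 with EGF (0.0796 to 0.129). For Uqcrq 7 single libraries did so (siCtrl replicate 1, siCtrl_EGF replicates 1 to 3, siArid1a replicates 1 and 2, and siArid1aplusEGF replicate 3; adjusted p = 0.0501 to 0.444), with a change of -0.12 without siCtrl replicate 1. RLE factors (0.0508), upper-quartile factors (0.133), total reads alone (0.106), the replicate block (0.0804), only the groups compared (0.0998) and DESeq2 (0.0561) also ended that call. The rise of Uqcrc1 without EGF did not hold when siCtrl replicate 2 (adjusted p = 0.115) or siArid1a replicate 3 (0.0516) was left out, or with only the groups compared (0.0511). The calls of Uqcrfs1 without and with EGF also ended with total reads alone (0.0885 and 0.132) and the replicate block (0.0501 and 0.0611). Only the groups compared ended the one without EGF (0.105), and FPKM without a filter the one with EGF (0.0509).

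Complex IV held the largest change of any member and both isoforms of subunit 6B. Of its 12 members 33.3% were called in each comparison, against 38.9% and 46.9% of all genes without and with EGF. Cox6b2, known as the testis isoform of the subunit that faces the intermembrane space at the dimer contact, was at 12.74 and 11.39 CPM in siCtrl, 7.968, 7.218 and 8.378 in siCtrl_EGF, 18.65, 20.27 and 24.10 in siArid1a and 13.17, 15.06 and 14.39 in siArid1aplusEGF. The libraries of the groups compared did not overlap. Its log2 change with the Arid1a siRNAs was 0.79 without EGF (1.73-fold, SE 0.12, adjusted p = 0.000177) and 0.86 with EGF (1.81-fold, SE 0.12, adjusted p = 4.91e-05). Cox6b1, the broadly expressed isoform, rose by 0.23 (SE 0.08, adjusted p = 0.035) and by 0.24 (SE 0.07, adjusted p = 0.0128), from 303.7 and 337.9 CPM in siCtrl to 349.5 to 425.1 in siArid1a and from 282.1 to 299.3 in siCtrl_EGF to 331.1 to 360.3 in siArid1aplusEGF. Cox6b2 made up 3.62% ± 0.014 (SD, n = 2) of the reads of both isoforms in siCtrl, 2.62% ± 0.232 (n = 3) in siCtrl_EGF, 5.28% ± 0.258 (n = 3) in siArid1a and 3.95% ± 0.108 (n = 3) in siArid1aplusEGF. Neither transcript shares a 50-base stretch with another gene. The call of Cox6b1 without EGF did not hold when siCtrl replicate 2 (adjusted p = 0.24) or siArid1a replicate 3 (0.105) was left out, and the one with EGF without siCtrl_EGF replicate 1 (0.0553). The call without EGF also ended with the replicate block (0.103) and only the groups compared (0.0994).

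Cox5a, a nuclear subunit of complex IV, fell by 0.33 without EGF (SE 0.09, adjusted p = 0.0121) and by 0.27 with EGF (SE 0.08, adjusted p = 0.0159). It was at 167.0 and 188.0 CPM in siCtrl, 158.6 to 173.2 in siCtrl_EGF, 131.3 to 158.0 in siArid1a and 125.7 to 154.4 in siArid1aplusEGF, close to each other but without overlap. Of its 50-base stretches 32.0% also occur in another gene, so it is among the uncertain members. Cox7a2l, named for complex IV and known as a factor that joins it to complex III in supercomplexes, fell by 0.24 in both comparisons (SE 0.09 and 0.08, adjusted p = 0.0351 and 0.0217). Each of these 4 calls was lost when certain single libraries were left out. For Cox5a these were siCtrl replicate 1 and siArid1a replicates 1 and 2 without EGF (adjusted p = 0.0515 to 0.126), and siCtrl_EGF replicates 2 and 3 and siArid1aplusEGF replicates 1 and 3 with EGF (0.0506 to 0.0854). For Cox7a2l they were both siCtrl libraries and siArid1a replicates 1 and 2 (0.0541 to 0.178), and siCtrl_EGF replicates 2 and 3 and siArid1aplusEGF replicates 1 and 3 (0.0615 to 0.102). Both Cox7a2l calls also ended with upper-quartile factors (0.122 and 0.0651) and total reads alone (0.093 and 0.0716), and the one without EGF with the replicate block (0.064) and only the groups compared (0.0891). Cox6a1, Cox7a1 and Cox8a, the liver-type 6A, heart-type 7A and ubiquitous 8A subunits, were not called (-0.20, -0.31 and 0.03 without EGF, -0.06, -0.11 and 0.14 with EGF).

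In complex V, 5.88% of 17 members were called without EGF and 11.8% with EGF, against 38.9% and 46.9% of all genes. Atp5a1, the alpha subunit that alternates with beta in the catalytic head, fell. It was at 849.1 and 829.9 CPM in siCtrl, 813.3, 840.7 and 821.2 in siCtrl_EGF, 669.2, 680.5 and 748.8 in siArid1a and 664.3, 692.1 and 666.9 in siArid1aplusEGF, so that all 6 libraries with Arid1a siRNAs were below all 5 others. The log2 change was -0.26 without EGF (SE 0.06, adjusted p = 0.00198) and -0.29 with EGF (SE 0.05, adjusted p = 0.000284). Its partner Atp5b did not pass the test, with -0.05 (95% interval -0.18 to 0.08) and -0.06 (-0.18 to 0.05). The delta subunit Atp5d of the central stalk rose with EGF by 0.19 (SE 0.07, adjusted p = 0.0473), a call lost without siCtrl_EGF replicate 1, 2 or 3 or siArid1aplusEGF replicate 2 (0.0705 to 0.235), with RLE factors (0.0574), no filter (0.0568), DESeq2 (0.0639), the replicate block (0.0794) and on FPKM (0.114 to 0.151). The c-ring genes Atp5g1, Atp5g2 and Atp5g3 were not called (0.01, -0.15 and -0.02 without EGF, 0.06, 0.27 and -0.00 with EGF). The median of the 17 complex V members was -0.11 without EGF and -0.06 with EGF, and that of the 12 complex IV members -0.13 and -0.07.

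**Figure D2:**
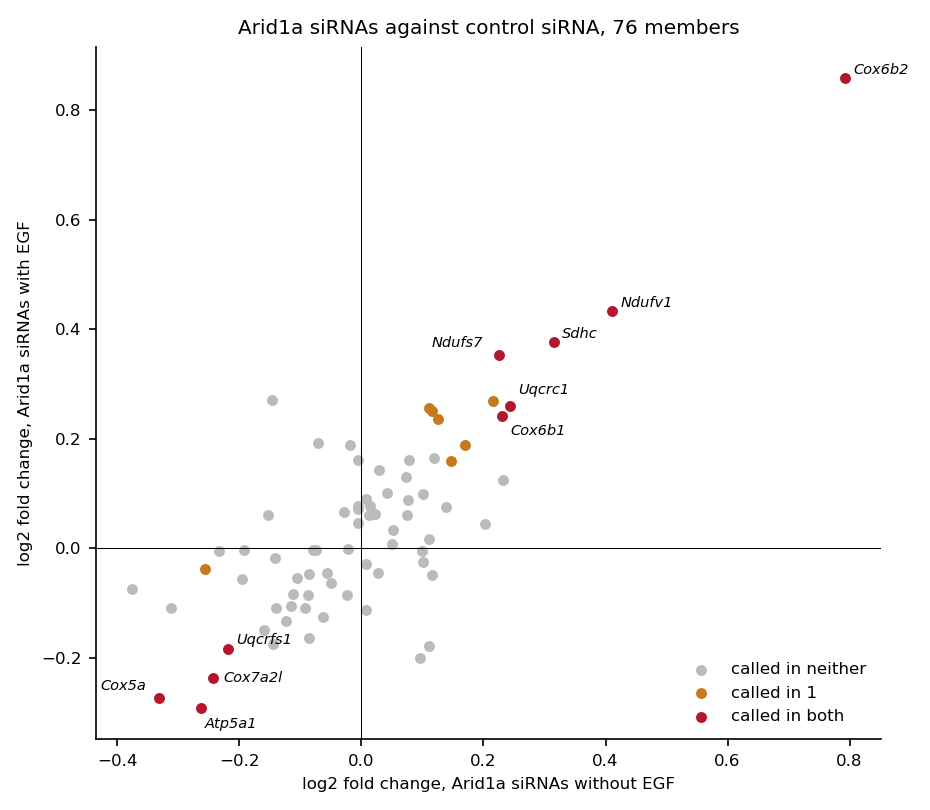
Log2 fold change of each of the 76 members with Arid1a siRNAs against control siRNA, without EGF (x axis) and with EGF (y axis); colours give in how many of the comparisons a member was called. The 10 members called in both lie in the upper right (6) and lower left (4), with Cox6b2 at 0.79 and 0.86 apart from the rest.

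The counts of these calls depended on the scaling and on single libraries, more than the calls of Cox6b2, Ndufv1, Sdhc and Atp5a1, which were kept in each of the 11 fits without 1 library. In the edgeR test against a fold of 1.2, Cox6b2 kept its calls and Ndufv1 the one with EGF. That test ended the calls of Ndufv1 without EGF (adjusted p = 0.0663), Sdhc (0.298 and 0.0541) and Atp5a1 (0.599 and 0.327). No other call of a member held against that fold, and the lists of what ended a call leave this test out. With upper-quartile factors or with total reads alone the split was 11 higher and 2 lower without EGF, and 17 higher and 2 lower with EGF. These scalings moved all genes the same way: of all calls, 60.7% and 59.2% were higher without EGF, and 58.4% and 60.4% with EGF, against 48.3% and 50.5% with TMM factors. Without siArid1a replicate 3, 3 were called higher and 13 lower in the comparison without EGF. Without siCtrl replicate 2 the counts were 3 and 8, and without siCtrl replicate 1 or siArid1a replicate 1 or 2 a single member was called lower. With EGF, 6 were called higher without siCtrl_EGF replicate 1 or siArid1aplusEGF replicate 2, and 1 lower without siCtrl_EGF replicate 2 or 3 or siArid1aplusEGF replicate 1 or 3. The labels do not state a pairing. Replicate numbers were taken to pair the libraries of the groups with EGF from correlations in these same data. A fit of these groups with the number as a block called 25 members higher and 14 lower, where 64.9% of 12880 genes were called. When the within-group component entered as a covariate, 15 rose and 14 fell without EGF, and 20 and 11 with EGF, while the share of all genes called was 53.3% and 59.7%. That component was drawn from the deviations of these same counts from their group means. Such a fit raises calls by construction, and its p-values are too small. The fit without the 4 libraries of highest sum left siCtrl with 1 library and dropped libraries by the members' own sum. More calls can follow from that choice alone, so its counts are not read here.

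Promoters of 5 members follow, 250 bases up to the annotated start (RefSeq, mouse build GRCm38.p6): the isoform pair Cox6b1 and Cox6b2 and Ndufv1, which rose with the Arid1a siRNAs, Ndufa11, which was called lower with EGF and control siRNA, a call lost without siCtrl replicate 1, and Atp5j, which was not called in any comparison and carries the most of these motifs among the 5. Capitals mark matches on either strand to core letters of sites known from respiratory chain promoters: CGCATGCG for NRF1, CCGGAAG for ETS factors such as GABPA, AAGATGGCG for YY1 and TCAAGGTCA for ERR factors. None of the matches shown overlaps another. Atp5j has 2 annotated starts, and the window shown is the 1 with the most matches, while the other genes shown have 1 start.
Cox6b1, chr7:30626115-30626364, minus strand: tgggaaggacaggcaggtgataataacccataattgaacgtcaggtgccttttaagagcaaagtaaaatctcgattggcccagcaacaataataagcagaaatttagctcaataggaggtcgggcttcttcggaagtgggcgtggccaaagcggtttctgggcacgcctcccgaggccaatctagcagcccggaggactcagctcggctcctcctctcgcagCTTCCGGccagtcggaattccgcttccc
Cox6b2, chr7:4753095-4753344, minus strand: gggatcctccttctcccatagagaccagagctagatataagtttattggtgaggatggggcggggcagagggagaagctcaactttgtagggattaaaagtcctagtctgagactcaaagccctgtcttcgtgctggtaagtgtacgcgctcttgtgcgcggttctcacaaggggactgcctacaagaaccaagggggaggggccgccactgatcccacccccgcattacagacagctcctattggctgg
Ndufv1, chr19:4012756-4013005, minus strand: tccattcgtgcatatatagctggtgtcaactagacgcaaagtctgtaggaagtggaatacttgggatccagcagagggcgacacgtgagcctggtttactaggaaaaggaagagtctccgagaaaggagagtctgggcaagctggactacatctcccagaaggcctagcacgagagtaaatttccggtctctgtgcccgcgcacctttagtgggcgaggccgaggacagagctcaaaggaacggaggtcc
Ndufa11, chr17:56717512-56717761, plus strand: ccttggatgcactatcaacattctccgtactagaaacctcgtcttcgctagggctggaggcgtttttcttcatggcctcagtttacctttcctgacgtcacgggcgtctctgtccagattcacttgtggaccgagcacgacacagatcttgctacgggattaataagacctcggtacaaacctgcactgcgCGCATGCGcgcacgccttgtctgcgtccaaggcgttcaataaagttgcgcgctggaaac
Atp5j, chr16:84834977-84835226, minus strand: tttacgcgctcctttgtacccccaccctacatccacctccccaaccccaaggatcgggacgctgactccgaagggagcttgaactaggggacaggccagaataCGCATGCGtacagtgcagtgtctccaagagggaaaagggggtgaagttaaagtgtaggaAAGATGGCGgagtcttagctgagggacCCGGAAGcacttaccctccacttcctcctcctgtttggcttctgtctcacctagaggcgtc

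The upstream sequence of Cox6b1 holds 1 ETS core near its start, on the opposite strand (CTTCCGG), Ndufa11 holds 1 NRF1 core, and Atp5j holds 1 NRF1, 1 YY1 and 1 ETS core in that order. None of these letters occurs in the window of Cox6b2 or Ndufv1. The Atp5j window was picked from 2 starts for its matches, so its count is not comparable with the others. Of the 66 members with an entry in the promoter table (250 bases before to 50 after the start), 9 held the NRF1 core (13.6%), against 2.07% of 27025 genes. The ETS core was in 16 (24.2%, against 9.93%), the YY1 site in 8 (12.1%, against 1.64%) and the ERR site in 2 (3.03%, against 0.466%). The CCAAT letters, in 45.5% of members, were in 41.1% of all genes. A match describes letters only.

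EGF was followed by lower levels of single subunits, and no member was called higher. With control siRNA, 12 of 76 members fell and 0 rose (15.8% called, against 35.6% of all genes tested, 16.8% higher and 18.8% lower). At an unadjusted p under 0.05 none was higher either, nor with DESeq2 or limma-voom. The median change of the members was -0.12 and 68 of 76 were below 0, where the median of all genes was -0.03. With Arid1a siRNAs, 4 fell and 0 rose (5.26%, against 23.4% of all genes, 13.0% higher and 10.4% lower), again with none higher at an unadjusted p under 0.05, with DESeq2 or with limma-voom. The median was -0.09, with 66 of 76 below 0, and that of all genes -0.01. These EGF comparisons share no library. Cox6b2 and Ndufv3 were called lower in both, 16.7% of the 12 and 50% of the 4.

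The count with control siRNA rested on siCtrl replicate 1. Without that library 1 member was called lower, Cox6b2, and the members' median was -0.05, while without siCtrl replicate 2 it was -0.19. Without siCtrl_EGF replicate 3 or replicate 1, 4 and 6 members were called lower. With the component of the variation within groups as a covariate, which raises calls by construction, 34 fell and 1 rose, where 50.7% of all genes were called. With Arid1a siRNAs, 1 member was called lower without siArid1a replicate 3, where the median was -0.01, or without siArid1aplusEGF replicate 1; the median was -0.14 without siArid1a replicate 2 or siArid1aplusEGF replicate 2. There the covariate gave 23 lower, with 39.1% of all genes called.

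Cox6b2, which rose with the Arid1a siRNAs, fell with EGF at both levels of Arid1a. The log2 change was -0.63 with control siRNA (1.55-fold lower, SE 0.13, adjusted p = 0.00194) and -0.56 with Arid1a siRNAs (1.48-fold lower, SE 0.11, adjusted p = 0.00185), and it was called in each fit without 1 library. Cox7a1, the heart and muscle isoform of subunit 7A, was at 54.46 and 42.98 CPM in siCtrl, 29.84, 38.06 and 32.74 in siCtrl_EGF, 38.98, 34.83 and 44.72 in siArid1a and 29.23, 35.54 and 28.69 in siArid1aplusEGF. With control siRNA it fell by 0.54 (SE 0.13, adjusted p = 0.00585), and by 0.36 without siCtrl replicate 1 (adjusted p = 0.0949). With Arid1a siRNAs its libraries overlapped and it did not pass the test (-0.34, SE 0.13, adjusted p = 0.0688). Cox7a1 made up 21.7% ± 2.3 (SD, n = 2) of the reads of Cox7a1 and Cox7a2 in siCtrl and 16.6% ± 1.1 (n = 3) in siCtrl_EGF. Cox5b, the zinc-binding subunit, fell by 0.33 with control siRNA (SE 0.11, adjusted p = 0.0256), which was lost without siCtrl replicate 1 (-0.19, adjusted p = 0.275) or siCtrl_EGF replicate 1 or 3 (0.0711 and 0.0737). It is among the uncertain members, with 25.9% of its 50-base stretches in another gene.

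In complex I, 6 of 35 members fell with control siRNA (17.1% called, against 35.6% of all genes and 18.8% called lower) and 2 with Arid1a siRNAs (5.71%, against 23.4% and 10.4%), with medians of -0.12 and -0.09. Ndufv3, an accessory subunit, was at 100 and 87.89 CPM in siCtrl and 70.48, 72.92 and 73.10 in siCtrl_EGF, and at 86.08, 74.52 and 102.6 in siArid1a and 67.55, 71.37 and 69.67 in siArid1aplusEGF. Neither pair of groups overlapped. It fell by 0.38 (SE 0.10, adjusted p = 0.00865) and by 0.33 (SE 0.09, adjusted p = 0.0186). The first call was lost without siCtrl replicate 1 (-0.29, adjusted p = 0.091), and the other without siArid1a replicate 3 (-0.20, 0.0701) or siArid1aplusEGF replicate 1 (0.0673), or on FPKM without a filter (0.0761). Ndufa11, a subunit of the membrane arm, fell by 0.39 with control siRNA (SE 0.11, adjusted p = 0.0142) from 137.8 and 116.8 to 93.73, 105.4 and 92.09 CPM. Ndufc1 fell by 0.31 (SE 0.09, adjusted p = 0.0141). Both lost the call without siCtrl replicate 1 (adjusted p = 0.144 and 0.126), and Ndufa11 also without siCtrl_EGF replicate 3 (0.0517). Ndufa13, one of the uncertain members, Ndufa2 and Ndufb11 complete the 6. Each of these was called in 8 of the 11 fits that left out 1 library. Ndufa3, a small accessory subunit, fell with Arid1a siRNAs by 0.31 (SE 0.09, adjusted p = 0.0189), a call lost without siArid1a replicate 3 (-0.19, 0.0683) or siArid1aplusEGF replicate 1 (0.0668), or on FPKM without a filter (0.0759).

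Complex II fell with control siRNA in its flavoprotein and in an anchor (2 of 4, 50% called, against 35.6% of all genes). Sdha went from 276.2 and 262.1 to 234.0, 246.0 and 230.9 CPM, a fall by 0.18 (SE 0.05, adjusted p = 0.0147), and Sdhc fell by 0.21 (SE 0.07, adjusted p = 0.027). Both calls were lost without siCtrl replicate 1 (adjusted p = 0.107 and 0.192), siCtrl_EGF replicate 1 (0.0521 and 0.103) or siCtrl_EGF replicate 3 (0.0562 and 0.0677). The Sdhc call also ended with only the groups compared (0.0501). With Arid1a siRNAs Sdha was at -0.13 (adjusted p = 0.0603), and none of the 4 was called. None of the 8 complex III members was called with EGF in either background, where 35.6% and 23.4% of all genes were. The called shares were 25% and 8.33% of the 12 complex IV members and 5.88% in each background of the 17 complex V members. In complex V, Atp5b stayed between 3023 and 3374 CPM over all 11 libraries, with EGF changes of 0.00 (95% interval -0.12 to 0.13) and -0.01 (-0.12 to 0.11). Atp5sl, which is named after the ATP synthase and is not one of its subunits, fell by 0.24 with control siRNA (SE 0.08, adjusted p = 0.0245), lost without siCtrl replicate 1 (0.197) or siCtrl_EGF replicate 3 (0.0965). The replicate block (0.07) and only the groups compared (0.069) ended that call too. Atp5s, which is not a classical subunit either, was at 2.632 to 4.853 CPM. It fell by 0.52 with Arid1a siRNAs (SE 0.17, adjusted p = 0.0381). Leaving out siCtrl_EGF replicate 1, siArid1a replicate 2 or 3, or siArid1aplusEGF replicate 1 or 2 ended that call (0.0507 to 0.147). No filter (0.0502), the replicate block (0.0533) and DESeq2 (0.104) ended it too.

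**Figure D3:**
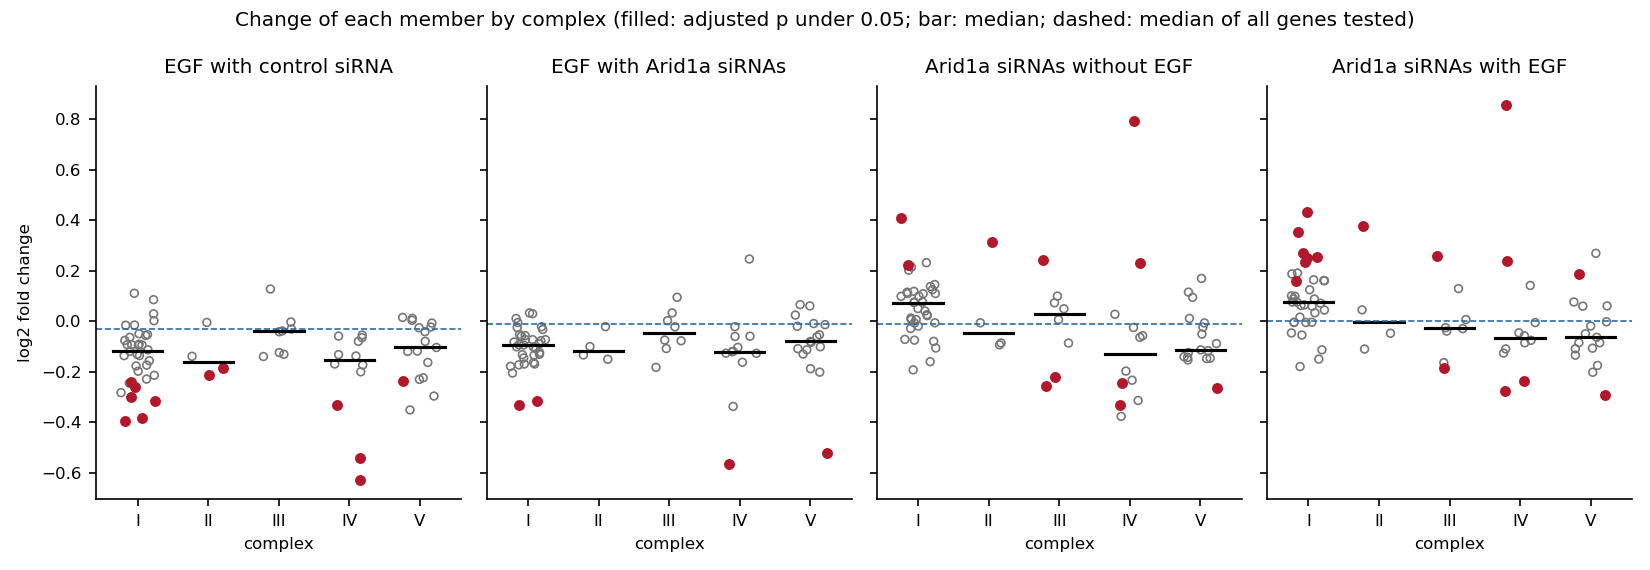
Log2 fold change of each member in the 4 comparisons, by the complex in its name; filled points have an adjusted p under 0.05, black bars are medians per complex and the dashed line is the median of all genes tested. In both EGF comparisons the called points lie below 0, and with Arid1a siRNAs the called complex I members lie above 0.

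**Figure D4:**
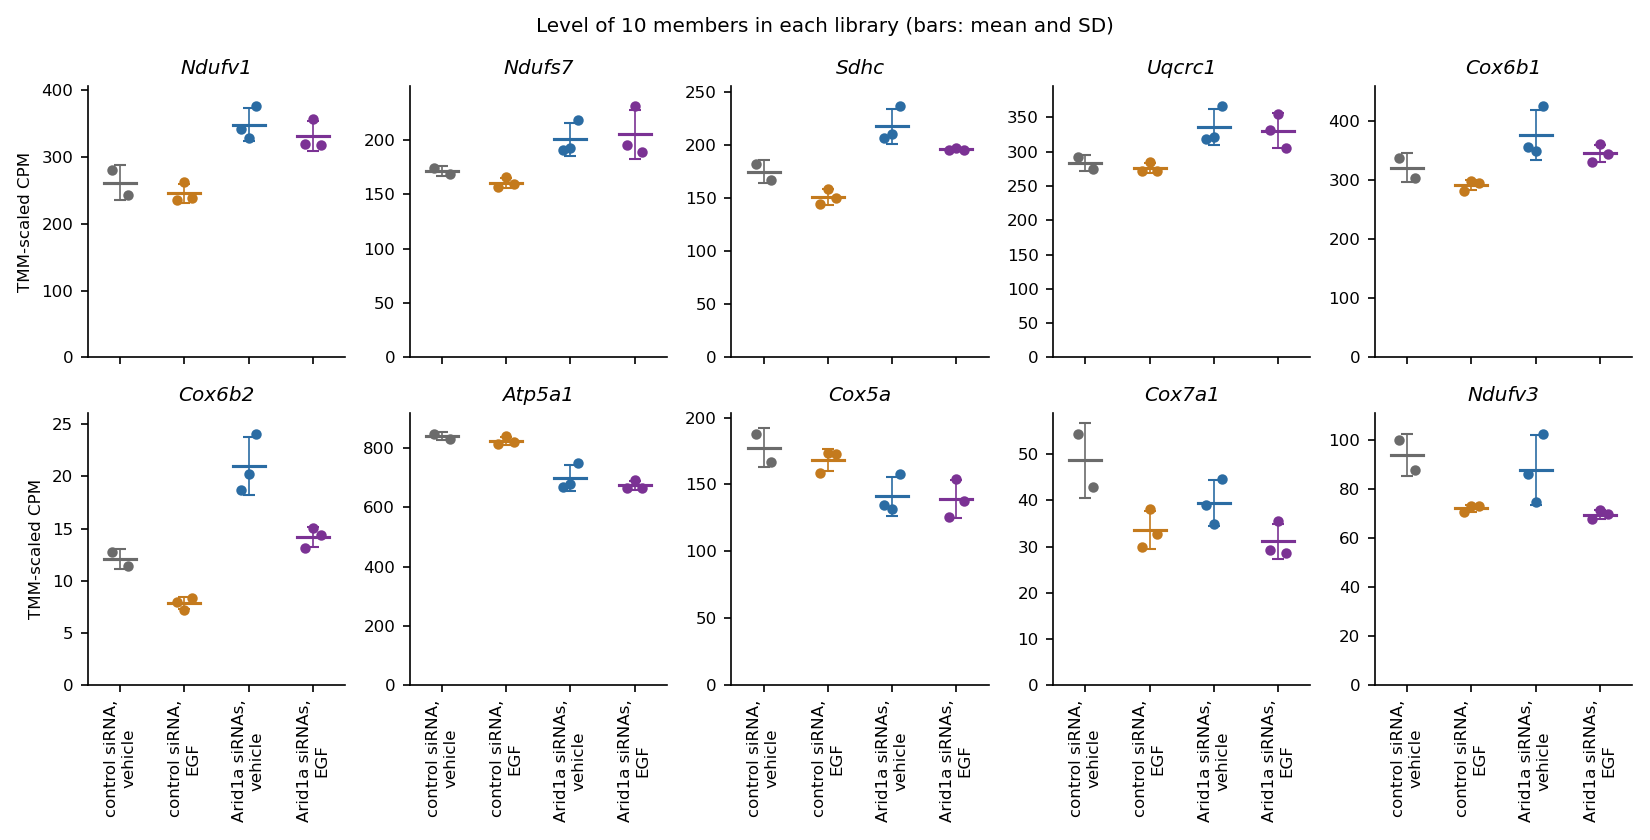
TMM-scaled CPM of 10 members in each library (points), with the group mean and SD; each axis starts at 0. Ndufv1, Sdhc, Uqcrc1 and Cox6b1 sit higher and Atp5a1 and Cox5a lower in the libraries with Arid1a siRNAs, and Cox6b2 is lower with EGF and higher with Arid1a siRNAs.

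The EGF response of the members was not found to differ between control and Arid1a siRNAs. In the interaction test 0 of 76 members were called, against 0.944% of all genes, and none had an unadjusted p under 0.05. DESeq2 and limma-voom called none. A fit that included the within-group component, which raises calls by construction, called 2 members, and 6.0% of all genes. The interaction of Cox6b2 was 0.06 on the log2 scale with a 95% interval of -0.30 to 0.43. For Ndufv1 the interval was -0.21 to 0.25, for Sdhc -0.14 to 0.26 and for Atp5a1 -0.19 to 0.13. Differences inside these intervals were not detectable with 2 or 3 libraries a group.

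Other genes of the pathway were measured beside the members. Of 7 tested chain subunits that the naming rule leaves out, Cyc1, the cytochrome c1 of complex III, was at 705 and 659 CPM in siCtrl, 519, 485 and 566 in siArid1a, 685, 742 and 711 in siCtrl_EGF and 531, 572 and 523 in siArid1aplusEGF. It fell with the Arid1a siRNAs by 0.38 (SE 0.07, adjusted p = 0.000518) and by 0.40 (SE 0.06, adjusted p = 0.000116), with no overlap. Cytochrome c itself, Cycs, fell by 0.48 (SE 0.17, adjusted p = 0.0376) and by 0.39 (SE 0.15, adjusted p = 0.0421) from a level of 6.52 and 6.57 CPM in siCtrl. Stretches shared with another gene were not counted for Cycs or for any other gene outside the naming rule. The subunit gene listed as 2010107E04Rik rose by 0.29 (adjusted p = 0.0224) and by 0.31 (adjusted p = 0.00613). Cox4i1, the main form of complex IV subunit 4, was not called (0.12 and 0.14). None of the 7 was called with EGF.

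Among regulators of mitochondrial biogenesis, 3 of 23 rose and 8 fell with the Arid1a siRNAs without EGF, and 2 rose and 11 fell with EGF. That is 47.8% and 56.5% called, against 38.9% and 46.9% of all genes, whose calls were split about evenly by direction. Esrra, the nuclear receptor ERR alpha, fell by 0.67 (SE 0.08, adjusted p = 1.67e-05) and by 0.74 (SE 0.07, adjusted p = 1.54e-06), from 60.2 and 66.9 CPM in siCtrl to 38.0 to 43.3 in siArid1a. Yy1 fell by 0.69 (adjusted p = 5.02e-06) and by 0.40 (adjusted p = 0.000172), and Tfam, which packages and transcribes mitochondrial DNA, by 0.31 (adjusted p = 0.00243) and by 0.32 (adjusted p = 0.000614). Nfe2l2, the stress-response factor NRF2, rose by 0.37 without EGF (SE 0.07, adjusted p = 0.000705). Ppargc1a, the coactivator PGC-1 alpha, fell with EGF by 0.89 (SE 0.13, adjusted p = 5.81e-05) and was at -0.27 without EGF (adjusted p = 0.146); the difference between these, -0.62, did not pass the interaction test (adjusted p = 0.201). With EGF and control siRNA 5 of the 23 rose and 1 fell (26.1% called, against 35.6% of all genes). Pprc1, a relative of PGC-1 alpha, rose by 0.86 (adjusted p = 1.01e-06), Peo1, the mitochondrial DNA helicase, by 0.31 (adjusted p = 0.00889) and Ppargc1a by 0.38 (adjusted p = 0.0446), and the deacetylase Sirt1 fell by 0.28 (adjusted p = 0.00613). With EGF and Arid1a siRNAs 2 rose and 2 fell (17.4%, against 23.4%).

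Of the protein import genes (Tomm and Timm), 9 of 20 rose with EGF and control siRNA and none fell, with a median of 0.19, where 16.8% of all genes were called higher and 18.8% lower. With EGF and Arid1a siRNAs 8 rose and none fell, with a median of 0.18, where 13.0% of all genes were called higher and 10.4% lower. Tomm70a, an import receptor, rose by 0.48 (SE 0.05, adjusted p = 8.56e-06) and by 0.37 (SE 0.05, adjusted p = 7.65e-05). Tomm40, the import channel, rose by 0.48 (adjusted p = 0.000214) and by 0.41 (adjusted p = 0.000546). Assembly factors had 6 of 30 higher and 2 lower with control siRNA (26.7% called, against 35.6% of all genes), and 4 and 2 with Arid1a siRNAs (20%, against 23.4%). Ndufaf4, a complex I assembly factor, rose by 0.71 (SE 0.08, adjusted p = 1.3e-05) and by 0.37 (SE 0.08, adjusted p = 0.00289). Of 76 mitochondrial ribosomal protein genes 16 rose and 2 fell, and 10 rose and 1 fell. Of 93 cytosolic ribosomal protein genes 14 rose and 1 fell, and 8 rose and 1 fell, with medians of 0.14 and 0.10.

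With the Arid1a siRNAs, 18.8% of all genes were called higher and 20.1% lower without EGF, and 23.7% and 23.2% with EGF. Without EGF and then with EGF, import genes had 1 higher and 4 lower of 20, then 2 and 7; assembly factors had 1 and 3 of 30, then 1 and 4. Mitochondrial ribosomal proteins had 4 and 12 of 76, then 5 and 16, and cytosolic ribosomal proteins 6 and 19 of 93, then 5 and 35. Tomm20, another import receptor, fell by 0.50 (SE 0.07, adjusted p = 5.09e-05) and by 0.63 (SE 0.06, adjusted p = 1.09e-06). Oxa1l, which inserts proteins into the inner membrane, fell by 0.50 (SE 0.07, adjusted p = 4.89e-05) and by 0.60 (SE 0.06, adjusted p = 2.25e-06). The lists were compared with the members by their counts alone, so that no difference between lists was tested.

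The counts of the remaining lists stand beside 38.9% and 46.9% of all genes called with the Arid1a siRNAs, without and with EGF, and 35.6% and 23.4% called with EGF, with control and Arid1a siRNAs. In the tricarboxylic acid cycle, 0 of 15 genes rose and 3 fell with the Arid1a siRNAs without EGF, and 0 rose and 5 fell with EGF. The 3 were citrate synthase (Cs, by 0.21), Idh2 (by 0.31) and Idh3a (by 0.30), with adjusted p of 0.0046, 0.00029 and 0.00208. EGF raised 2 and lowered 1 with control siRNA, and raised 2 and lowered 2 with Arid1a siRNAs; Idh2 fell by 0.35 (adjusted p = 9.88e-05) and by 0.24 (adjusted p = 0.0015), and Idh3a rose by 0.38 (adjusted p = 0.000374) and by 0.30 (adjusted p = 0.00185). Of 14 genes of pyruvate entry and lactate, 3 rose and 2 fell with EGF and control siRNA, 3 and 1 with EGF and Arid1a siRNAs, 2 and 2 with Arid1a siRNAs alone and 3 and 3 with both. Ldha, which makes lactate from pyruvate, rose with EGF by 0.52 (adjusted p = 0.000763) and by 0.57 (adjusted p = 0.000286) and fell with the Arid1a siRNAs by 0.39 (adjusted p = 0.00552) and by 0.34 (adjusted p = 0.00456).

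For the carriers and porins of ATP export, 1 of 10 tested genes rose and 1 fell with EGF and control siRNA, 1 and 0 with EGF and Arid1a siRNAs, 1 and 2 with the Arid1a siRNAs alone, and 1 and 4 when EGF was present. Slc25a5, an ADP/ATP carrier, rose with EGF by 0.46 (adjusted p = 3.95e-05) and by 0.35 (adjusted p = 0.000329), and fell with the Arid1a siRNAs by 0.32 (adjusted p = 0.000887) and by 0.43 (adjusted p = 1.74e-05). Ucp2, an uncoupling protein, fell with the Arid1a siRNAs by 0.77 (adjusted p = 1.62e-06) and by 0.80 (adjusted p = 2.34e-07), and Slc25a42, a carrier of coenzyme A, rose by 0.72 (adjusted p = 0.00163) and by 0.63 (adjusted p = 0.00203). Atpif1, the inhibitor of the ATP synthase, was not called in any of the 4 (-0.24, -0.13, -0.11 and -0.004 in that order). Of 10 mitochondrial antioxidant genes, the counts were 3 and 2, 2 and 1, 2 and 1, and 3 and 2 in the same order. Among these Txn2, the mitochondrial thioredoxin, was at 228 and 209 CPM in siCtrl, 93.4, 93.3 and 104 in siArid1a, 246 to 275 in siCtrl_EGF and 105 to 121 in siArid1aplusEGF. It fell by 1.18 (SE 0.08, adjusted p = 6.81e-08) and by 1.23 (SE 0.07, adjusted p = 9.45e-09), with no overlap. Txnrd2, its mitochondrial reductase, rose by 0.65 (SE 0.10, adjusted p = 0.000133) and by 0.38 (SE 0.08, adjusted p = 0.00184), and Sod2, the mitochondrial superoxide dismutase, by 0.25 (adjusted p = 0.00484) and by 0.26 (adjusted p = 0.00113).

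**Figure D5:**
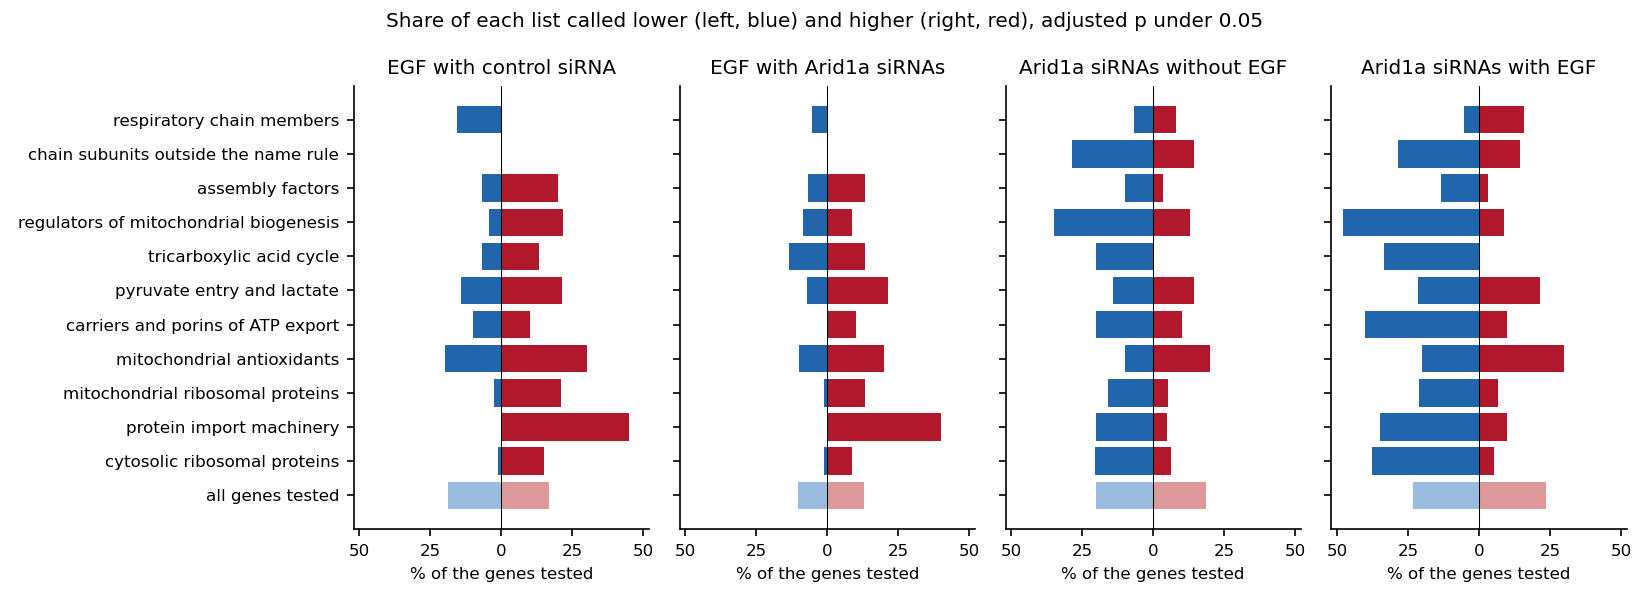
Percent of the tested genes of each list called lower (blue, to the left) and higher (red, to the right) at an adjusted p under 0.05, for the members (n = 76), the fixed lists and all genes tested (pale). In the EGF comparisons the members have no red bar, while the import machinery has 9 and 8 of 20 genes called higher and no blue bar.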

How the data were processed

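RNA libraries (TruSeq v2, no strand mark) of 11 samples were used, grouped by their labels. Per the submitters' processing notes, the authors used TopHat2 2.1.1, HTSeq 0.9.1, Cuffnorm 2.2.1.2 and Cuffdiff 2.2.1.5 with build mm9; the annotation and counting settings are not given in the sources used here. The deposited count tables hold raw reads per gene symbol, and the authors' FPKM table served for levels per length and as an alternative. Of its columns 9 were used; 3 columns named as control without EGF were left out, since the labels list 2 such libraries.

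Counts were fitted with edgeR 4.0.16 in R 4.3.3: filterByExpr (minimum count 10, total 15; 13343 genes), TMM factors, 4 group means over 11 libraries, robust quasi-likelihood test (legacy setting), Benjamini-Hochberg adjustment over all tested genes, called under 0.05, two-sided. The residual degrees of freedom were 7. The fit was tested on simulated data. Alternatives were RLE and upper-quartile factors, no filter, only the groups compared, a replicate block, each library left out, a test against a fold of 1.2, edgeR without the legacy setting, DESeq2 1.42.0, limma-voom (limma 3.58.1), limma on log2(FPKM + 1) or + 0.1, and members of at least 10 CPM. The covariate, the removal of 4 libraries, total reads alone and the 2-group block were added after the data were seen.

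The members and the gene lists were chosen with earlier results of these data known. Genes are named by rule: in each complex the 3 called members of smallest p, called members past 1.5-fold, a set of key subunits (1 called member is not reported here), and from the lists Cyc1, Cox4i1, Cycs, Ppargc1a, Tfam and Atpif1, with others only from the 3 called genes of smallest p of a list, of which some are named. Same-number libraries of siCtrl_EGF and siArid1aplusEGF deviated from their group means together (correlations 0.325 to 0.628, against -0.488 to 0.264 for other numbers), so these numbers were taken to pair. The labels do not state this pairing. Some libraries of unlike number in other groups correlated more strongly, such as siCtrl replicate 1 with siCtrl_EGF replicate 2 (0.715). Libraries of a group differed by 1.57 to 10.9 in chi-square per degree of freedom, so none is a copy. Promoters and transcripts are of build GRCm38, used for letters and lengths only. How reads in sequence shared between genes were assigned is not given in the sources used here.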

Additional observations from a re-analysis of the deposited data

Results flagged for a closer look

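Ndufs5, which encodes an accessory subunit of complex I, was all but absent from the count tables, with 3 reads in the 11 libraries together and 0 in 9 of them. The authors' FPKM table, which no comparison of this gene uses, gave it a mean of 39.3 FPKM over the 9 columns, with a range of 0.0492 to 69.9. Of the 50-base stretches of its transcript, 41.2% also occur in the processed pseudogene BC002163. The part of this in the difference between the tables was not tested.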

How the results depend on the processing

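No called change of a named member turned direction under the alternatives run. Members near 0 that were not called (such as Sdha, Atp5b and Atp5g3) did change sign, as did medians of the members below. Of the named members' values, 2602 stayed on their side of the threshold, 144 lost a call and 52 gained one. The counts moved more. With EGF and control siRNA, 12 members were called lower, against 1 in a test against a fold of 1.2, 34 when the within-group component was a covariate (1 then higher) and 1 to 17 when 1 library was left out; the median change ran from -0.191 to -0.047. With Arid1a siRNAs without EGF, 6 were called higher, against 11 with upper-quartile factors or total reads alone, 1 against a fold of 1.2, 15 with the covariate, 3 with only the groups compared, 10 without the 4 libraries of highest sum and 3 to 8 with 1 library left out. The 5 called lower became 2 with upper-quartile factors, total reads alone or only the groups compared, 0 against a fold of 1.2, 14 with the covariate, 11 without the 4 libraries and 1 to 13 with 1 library left out; the median ran from -0.088 to 0.078. With Arid1a siRNAs and EGF, the 12 called higher became 2 against a fold of 1.2, 20 with the covariate, 18 without the 4 libraries, 8 on FPKM without a filter and 6 to 17 with 1 library left out, and the 4 called lower became 2 with upper-quartile factors or total reads alone, 0 against that fold, 11 with the covariate, 13 without the 4 libraries and 1 to 5 with 1 left out; the median ran from -0.035 to 0.052. With EGF and Arid1a siRNAs, the 4 called lower became 9 with total reads alone or without the 4 libraries, 1 against that fold, 23 with the covariate, 2 on FPKM without a filter and 1 to 6 with 1 left out; the median ran from -0.141 to -0.006. In the interaction the covariate gave 2 higher, and the median ran from -0.045 to 0.113 with 1 library left out. The covariate and the choice of the 4 libraries were drawn from these same counts and narrow the spread by construction. Their higher counts are therefore no support for the calls, and without the 4 libraries siCtrl had 1 library. The cause of these shifts was not tested.

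With the replicate block over all libraries, the counts higher and lower were 0 and 10 for EGF with control siRNA, 4 and 2 for Arid1a siRNAs without EGF, 10 and 3 with EGF, 0 and 3 for EGF after Arid1a knockdown, and 0 and 0 in the interaction. In the fit of only the groups with EGF, with the numbers taken to pair, they were 25 and 14. In other pairs of groups the correlations of same-number libraries ran from -0.72 to 0.641, so numbers there are only names. DESeq2 called 6 and 4 without EGF and 10 and 5 with EGF for the Arid1a siRNAs, and limma-voom 6 and 5, and 12 and 5. The EGF calls with control siRNA rest on 2 libraries of the siCtrl group.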
